A study of Homo sapiens with 4 samples.

Results

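The genes described here are 9 components and regulators of complement, C1R, C1S, SERPING1, C3, CFI, CD46, CD55, CD59 and CLU, taken by symbol from a table of 23577 usable genes. They were measured in SKUT1, SKN, SKLMS1 and RKN, 4 established human cell lines from leiomyosarcoma, a malignant tumour with features of smooth muscle. All lines were untreated and grown in the same medium with 10% fetal bovine serum, and each gave 1 poly(A) RNA-seq library, so each line is a group of 1 sample and no difference has a replicate check. Levels are FPKM, fragments scaled to transcript length and library size. FPKM do not share a common total, so comparisons between lines carry this limit. The columns summed to 619584 in SKUT1, 538300 in SKN, 494047 in SKLMS1 and 446954 in RKN. Differences are given on the log2(FPKM + 1) scale, which understates those of low genes, and a factor of 2 is used as a mark of size with no test behind it. All 9 genes were among the 13713 that reached an FPKM of 1 in at least 1 line.

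Complement is a cascade of plasma proteins that tags and lyses cells. In the classical pathway C1q binds a target and activates the paired proteases C1r and C1s, which start the cleavage of C4 and C2 and then of C3, the protein on which all the pathways meet. Host cells are shielded by soluble inhibitors and by membrane proteins that dismantle the convertases or block the lytic pore. The liver makes most of the circulating proteins, and fibroblasts, macrophages and epithelial cells make several of them locally.

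These 9 complement genes were unevenly spread over the lines. SKUT1 held the highest level of C1R, C1S, SERPING1, CD46, CD55 and CD59, SKN that of C3, and SKLMS1 those of CFI and CLU, and these leading lines were the same under TPM, median-of-ratios and quantile scaling except that SKLMS1 led CD46 under TPM. In bulk RNA, fewer cells expressing a gene and less of its RNA per cell cannot be told apart. RKN was highest for none of the 9, and second for SERPING1 and CLU. The highest and lowest line differed by 4-fold or more (2 in log2 units) for 8 of the 9 genes, all but CD46, and 26.7% of all kept genes were that far apart. That share was 16.1% without SKUT1, 12.4% with a pseudocount of 5 and 40.9% with one of 0.1. For single genes this rested on 1 line: without SKN the log2 range was 1.58 for C3 and 1.21 for CLU, and without SKLMS1 it was 0.17 for CFI. Without SKUT1 the ranges were 2.66 for C1R, 2.36 for C1S, 4.002 for SERPING1, 2.67 for CD55 and 2.24 for CD59. The median log2 range over the lines was 5.06 for the 9 genes and 1.31 for all kept genes. The 9 genes were chosen with earlier results of these data known, so these comparisons with all kept genes are no test of complement genes. On the wider pathway list described below, 7 of the 15 kept genes were 4-fold or more apart. The most abundant member was CLU in RKN and SKLMS1, C3 in SKN and CD59 in SKUT1, with 37.3%, 35.5%, 44.9% and 39.8% of the summed FPKM of the 9 genes. That sum was 1165 in SKUT1, 268 in SKN, 140 in SKLMS1 and 104 in RKN.

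**Figure D1:**
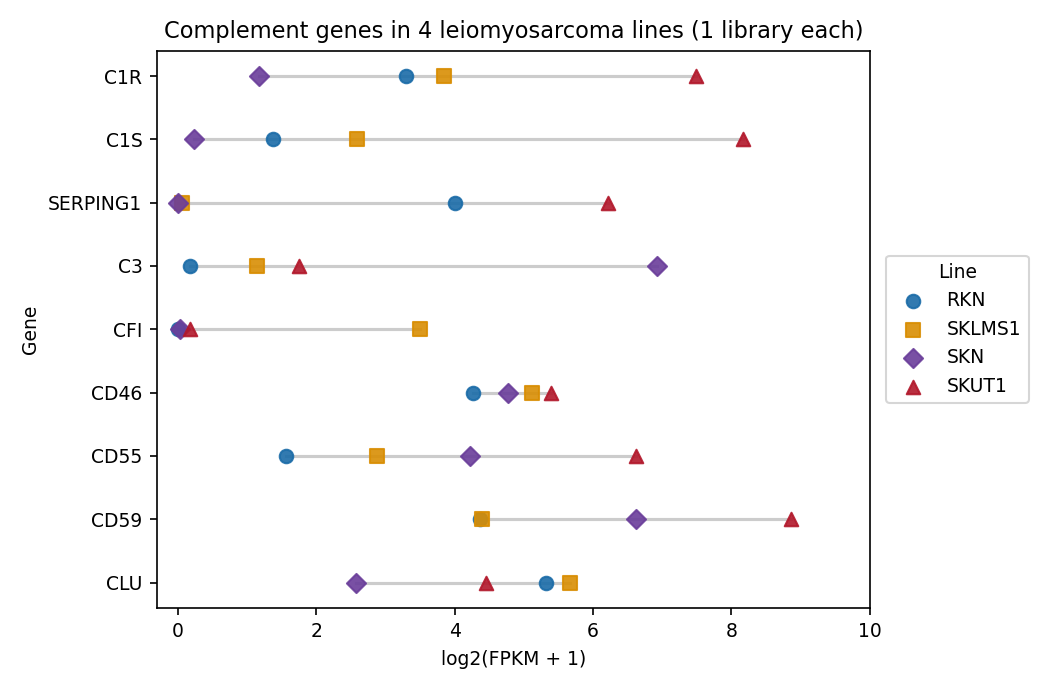
Level of each complement gene in each line as log2(FPKM + 1), with 1 point per line and a grey bar from the lowest to the highest. CD46 spans 1.12 on this axis and C1S 7.94, and SKUT1 is the rightmost point for C1R, C1S, SERPING1, CD46, CD55 and CD59.

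Depth was not part of the table and was estimated from the lowest values at 24300000 to 33300000 reads per library, so that a single read equalled an FPKM of 0.0167 to 0.0228 for a 2 kb transcript. Exact zeros were given for 6793 to 7534 genes in each line, and such a 0 can be a failed estimate. Cell identity was checked on marker lists of smooth muscle, hepatocytes, macrophages and leukocytes, and endothelial cells. Fibroblasts and epithelial cells, which also make complement proteins, had no list and were not checked. Of 7 smooth muscle markers, 4 to 6 reached an FPKM of 1 in each line, but MYH11, smooth muscle myosin, was at most 1.15 and DES, desmin, at most 1.10. In SKN the 4 were ACTA2 (1.37), TAGLN (5.82), CALD1 (44.1) and SMTN (45.6), and CNN1 was 0.228. Several markers of the other listed cells were near 0. ALB and the other hepatocyte markers apart from SERPINA1 were at most 0.414, and the leukocyte marker PTPRC was at most 0.213. Higher values were those of CD68 (4.76 to 75.3), CD14 (at most 1.64), CSF1R (5.48 in SKLMS1) and SERPINA1 (2.18 in SKLMS1 and 19.8 in SKN). In SKN TIE1 was 70.0 and KDR 4.91. The endothelial markers PECAM1, CDH5 and VWF were at most 0.293 in all lines. The summed FPKM of the 7 smooth muscle markers was 97.7 in SKN, 204 in RKN, 843 in SKLMS1 and 6279 in SKUT1, that of the 6 hepatocyte markers 0.403 in RKN to 19.8 in SKN, and that of the 7 leukocyte markers 5.57 in RKN to 77.2 in SKUT1. That of the 5 endothelial markers was 0.0578 in RKN and 75.1 in SKN. The part of these in the complement values was not tested.

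Upstream sequence is shown for 4 of the genes, C1R and CFI because SKUT1 led the one and SKLMS1 the other, and CD55 and CD59 because SKUT1 led both, followed by SKN. Each is the 250 bases before the start of the gene in the RefSeq table of promoters (build GRCh38.p14), 5′ to 3′ on the gene's own strand. Of 8 members looked up, 5 had an entry (C1R, CFI, CD46, CD55 and CD59). The C1R window lies at chr12:7092446-7092695, minus strand, that of CFI at chr4:109802000-109802249, minus strand, that of CD55 at chr1:207321428-207321677, plus strand and that of CD59 at chr11:33736480-33736729, minus strand. Capitals mark matches, on either strand, to any of the motifs spelled out after the sequences.
C1R: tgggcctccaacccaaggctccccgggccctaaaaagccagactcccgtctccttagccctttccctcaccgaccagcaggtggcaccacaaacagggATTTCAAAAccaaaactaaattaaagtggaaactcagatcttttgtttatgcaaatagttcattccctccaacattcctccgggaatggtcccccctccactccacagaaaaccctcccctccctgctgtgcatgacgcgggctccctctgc
CFI: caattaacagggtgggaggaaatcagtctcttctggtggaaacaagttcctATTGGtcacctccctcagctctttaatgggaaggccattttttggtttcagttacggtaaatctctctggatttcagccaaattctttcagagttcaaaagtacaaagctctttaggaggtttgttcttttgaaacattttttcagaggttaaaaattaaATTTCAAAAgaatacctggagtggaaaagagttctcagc
CD55: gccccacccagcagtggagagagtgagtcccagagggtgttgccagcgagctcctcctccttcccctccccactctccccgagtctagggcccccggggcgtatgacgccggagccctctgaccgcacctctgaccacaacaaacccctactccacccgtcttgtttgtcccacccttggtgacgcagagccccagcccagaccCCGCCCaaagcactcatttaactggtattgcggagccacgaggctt
CD59: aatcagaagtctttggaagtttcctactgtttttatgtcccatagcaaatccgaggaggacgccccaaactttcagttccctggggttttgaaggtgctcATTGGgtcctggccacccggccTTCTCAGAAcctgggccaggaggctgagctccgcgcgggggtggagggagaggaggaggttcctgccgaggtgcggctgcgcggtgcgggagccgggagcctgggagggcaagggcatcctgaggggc

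The motifs, picked with the levels known, were the interferon-stimulated response element GAAANNGAAA, the STAT site TTCNNNGAA, the C/EBP site TTNNGNAAT, the NF-kB site, the TATA box TATAAA, the CCAAT box and the GC box GGGCGG. They occur in 3.02%, 6.57%, 9.85%, 9.96%, 10.7%, 32.0% and 42.6% of the 35116 windows of the same length in that table. C1R held the C/EBP letters on the reverse strand from -152 to -144 of the start, and CFI the same 9 letters, ATTTCAAAA, from -39 to -31, together with a CCAAT on the reverse strand at -199. CD59 held the palindromic STAT letters TTCTCAGAA from -128 to -120 and a CCAAT on the reverse strand from -150. CD55 held a GC box on the reverse strand from -46 to -41 and no other of these motifs. No 2 of these matches overlap, and CD55 and CD59 had no motif of the set in common in this window.

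The proteases that begin the classical pathway led in SKUT1. C1R, which encodes the protease that activates C1s, had an FPKM of 179 in SKUT1, 1.26 in SKN, 13.3 in SKLMS1 and 8.78 in RKN. SKUT1 was thus 13.4-fold above SKLMS1, the next line, and SKN was the low line, 6.97-fold below RKN. RKN and SKLMS1 lay within 1.52-fold of each other, inside the 2-fold mark. C1S, which encodes the protease that cleaves C4 and C2, ran in the same order, at 287 in SKUT1, 0.172 in SKN, 5.03 in SKLMS1 and 1.59 in RKN. SKUT1 was 57.0-fold above SKLMS1, and here all neighbours in the order were more than 2-fold apart. The value in SKN stands for about 11 reads at the estimated depth.

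C1r and C1s act as a pair, and their genes are direct neighbours in the RefSeq order of chromosome 12, with no annotated gene between them. The ratio of C1R to C1S FPKM, which a single scaling factor per line does not change, was 0.626 in SKUT1, 7.33 in SKN, 2.65 in SKLMS1 and 5.53 in RKN. C1R was therefore the more abundant of the pair in RKN, SKLMS1 and SKN, and C1S in SKUT1. The sum of both was 466 in SKUT1, 1.43 in SKN, 18.4 in SKLMS1 and 10.4 in RKN. When kept genes were ranked by how close their pattern lay to that of C1R, as the Euclidean distance between profiles of log2(FPKM + 1) over the 4 lines after subtracting each gene's mean, C1S stood in place 82 of 13712. From C1S, C1R stood in place 52. The 3 genes closest to C1R were SLIT3, GDF15 and NOTCH3 (distances 0.97 to 1.07), and those closest to C1S included PCOLCE2 (0.67) and NOTCH3 (1.03).

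SERPING1 encodes C1 inhibitor, the serpin that traps C1r and C1s. It was 15.0 in RKN and 73.7 in SKUT1, 0.0403 in SKLMS1 and listed at 0 in SKN. The SKLMS1 value is that of about 2 reads, so no fold is given for either of the low lines. SKUT1 was 4.90-fold above RKN. Of the 10 protein-coding genes nearest to SERPING1 in RefSeq order, none was listed at 0 in SKN and 8 had an FPKM of 1 or more there. SKLMS1 thus had C1R and C1S at 18.4 in sum with SERPING1 at 0.0403. The ratio of SERPING1 to the sum of C1R and C1S was 1.45 in RKN, where the inhibitor was the most abundant of the 3 transcripts, and 0.158 in SKUT1, where the proteases exceeded it 6.33-fold. The gene with the nearest pattern was the chemokine gene CCL2 (distance 0.24), with 94.4 in SKUT1, 0.291 in SKN, 0.240 in SKLMS1 and 22.9 in RKN, followed by AEBP1 (0.51) and COL5A2 (1.35).

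C3 had a different leading line. Its FPKM was 2.36 in SKUT1, 120 in SKN, 1.21 in SKLMS1 and 0.127 in RKN. SKN stood 51.0-fold above SKUT1, the next line, while SKUT1 and SKLMS1 were 1.96-fold apart, inside the 2-fold mark. RKN was lowest, at a value of about 15 reads. SKN, with the most C3, had the least C1R and C1S. Among 13712 genes ranked by closeness to C3, C1R, C1S and SERPING1 stood in places 13537, 13623 and 13603, near the far end. CLU was there as well, in place 13306, and CD46, with the narrowest range of the members, in place 5647. The distance is not scaled for range, so wide genes with different leading lines lie far apart. The nearest included BCL2A1, an anti-apoptotic gene, and TIE1, an endothelial receptor gene (distances 1.02 and 1.12), both with their main level in SKN.

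CFI encodes factor I, the protease that inactivates C3b and C4b when a cofactor is present. It was 10.3 in SKLMS1, 0.125 in SKUT1, 0.0201 in SKN and listed at 0 in RKN. Only SKLMS1 was above an FPKM of 1. The values in SKUT1 and SKN are those of about 5 reads and 1 read, so no fold is given and the order of the 3 low lines is not read. Of the 9 neighbours of CFI found in the table, 1 was listed at 0 in RKN and 5 reached an FPKM of 1. The nearest patterns were those of AS3MT, the kidney cadherin gene CDH16 and the efflux pump gene ABCB1 (distances 0.11 to 0.15), which were between 9.11 and 11.1 in SKLMS1.

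The membrane regulators were present in every line. CD46 encodes membrane cofactor protein, which serves factor I in cleaving C3b and C4b. It was 41.0 in SKUT1, 26.4 in SKN, 33.7 in SKLMS1 and 18.3 in RKN. As TPM the 2 leading lines changed places, at 68.3 in SKLMS1 and 66.2 in SKUT1. The whole span was 2.24-fold, each neighbour in the order lay within 1.44-fold, and 40.1% of kept genes had a smaller range. CD55 encodes decay-accelerating factor, which takes apart the C3 convertases, and was 97.5 in SKUT1, 17.7 in SKN, 6.36 in SKLMS1 and 1.95 in RKN. Each step in this order was more than 2-fold, from 2.79 between SKLMS1 and SKN to 5.50 between SKN and SKUT1. CD59 encodes the protein that blocks the last step of pore assembly. It was 463 in SKUT1, 97.1 in SKN, 20.0 in SKLMS1 and 19.7 in RKN, so RKN and SKLMS1 were level (1.02-fold, with their order turned under TPM and quantile scaling), SKN stood 4.84-fold above SKLMS1, and SKUT1 4.77-fold above SKN.

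CD55 and CD59 were the members closest to each other in pattern, at a distance of 0.93. CD59 stood in place 15 of 13712 from CD55, and CD55 in place 29 from CD59, while CD46, whose gene lies near CD55 on chromosome 1, stood in place 2561 from CD55. The nearest to CD55 were LAMC1, TMEM173 and FAM43A (0.47 to 0.57), and to CD59 IFFO1, FGF5 and MFGE8 (0.11 to 0.48). IFFO1 was 0.0950 in RKN and 0.156 in SKLMS1, and FGF5 0.154 and 0.0255. The log2(FPKM + 1) scale understates differences at such levels. The summed FPKM of CD46, CD55 and CD59 was 602 in SKUT1, 141 in SKN, 60.1 in SKLMS1 and 40.0 in RKN, a span of 15.1-fold. Its make-up shifted with it. CD46 held 6.82% of the sum in SKUT1, 18.7% in SKN, 56.1% in SKLMS1 and 45.8% in RKN. CD59 held 77.0%, 68.7%, 33.3% and 49.3% in the same order of lines, and CD55 16.2%, 12.6%, 10.6% and 4.88%. SKLMS1 was the line in which CD46 exceeded CD59. CD59 lay in the 98.6th percentile of kept genes in SKUT1 and in the 71.6th in RKN. These are transcript levels, and no protein was measured.

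**Figure D2:**
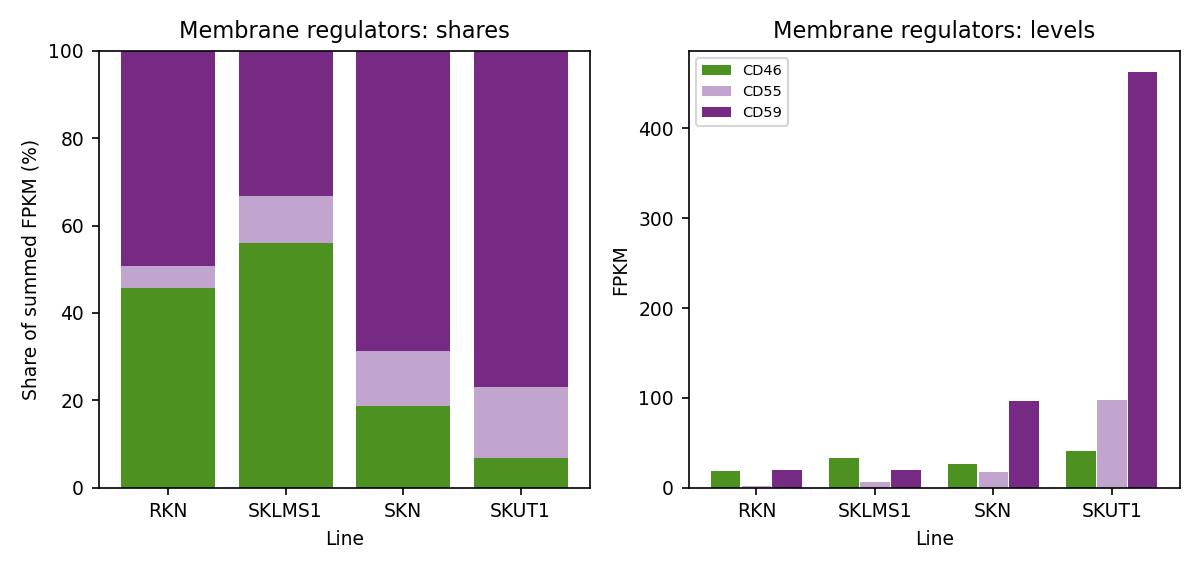
Left, share of CD46, CD55 and CD59 in their summed FPKM in each line (%); right, the FPKM of each on a linear axis from 0. CD59 holds 33.3% of the sum in SKLMS1 and 77.0% in SKUT1, where its level of 463 is the tallest bar.

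CLU encodes clusterin, a secreted chaperone that also binds the terminal complement complex. It was 20.9 in SKUT1, 4.95 in SKN, 49.6 in SKLMS1 and 38.9 in RKN. RKN and SKLMS1 were within 1.28-fold, RKN and SKUT1 within 1.87-fold, and SKN lay 4.22-fold below SKUT1. In FPKM the other 3 lines lay within 2.38-fold of each other. RKN and SKUT1 were more than 2-fold apart as TPM (87.1 and 33.7) and under quantile scaling (42.8 and 18.8). CLU was 1.98-fold the level of CD59 in RKN and 2.48-fold in SKLMS1, but 0.0510 and 0.0451 of it in SKN and SKUT1. The nearest patterns were those of IGF2BP1, TMSB4X and DPM3 (0.27 to 0.51).

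Each line was also compared with the mean of the other 3. These 4 comparisons use the same 4 libraries, so a gene that is high in 1 line tends to count as low in others. They also set genes chosen with earlier results of these data known beside all kept genes. In SKUT1, C1R, C1S, SERPING1, CD55 and CD59 were at least 2-fold higher, which is 5 of 9 where 17.9% of kept genes were, and CFI was lower (1 of 9, with 13.1% of kept genes). As TPM these shares of kept genes were 15.0% higher and 22.9% lower. The differences were 4.72 for C1R, 6.77 for C1S, 4.87 for SERPING1, 3.73 for CD55 and 3.73 for CD59. C3, at -0.997, lay just inside the 2-fold mark; it was -2.28 without RKN, -1.80 without SKLMS1 and 1.09 without SKN. The members lower in SKUT1 were thus CFI and C3 without RKN, C3 in place of CFI without SKLMS1, and CFI and CLU (-1.04) without SKN. In SKN, C3 was higher (difference 5.90; 1 of 9, with 9.97% of kept genes), and C1R, C1S, SERPING1, CFI and CLU were lower (5 of 9, with 10.8%), from -1.19 for CFI to -3.82 for C1S.

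In SKLMS1, CFI (3.43) and CLU (1.55) were higher, 2 of 9 against 10.7% of kept genes, and SERPING1, C3, CD55 and CD59 were lower, 4 of 9 against 9.83%. Of these, C3 was at 0.18 without SKN, and CD55 at -0.016 without SKUT1. In RKN, SERPING1 (1.91) and CLU (1.09) were higher, 2 of 9 against 11.6%. Another 5, C1S, C3, CFI, CD55 and CD59, were lower there, against 16.6% of kept genes (20.5% higher and 15.5% lower as TPM), from -1.23 for CFI to -3.10 for C3. Without SKLMS1, CFI was at -0.10 in RKN and -0.056 in SKN, and C1R at -1.05 in RKN passed the mark, while without SKUT1 C1S was at -0.039 in RKN. The median difference of the 9 genes was 3.73 in SKUT1, -1.19 in SKN, -0.66 in SKLMS1 and -1.23 in RKN, beside -0.03, -0.05, -0.06 and -0.04 for all kept genes. Without SKUT1 among the comparison lines the median in RKN was -0.68 and that in SKLMS1 0.59, and 4 members were higher in SKLMS1, C1R and C1S besides CFI and CLU. In SKN 3 were then higher, CD55 and CD59 besides C3. Without SKLMS1 the median in SKN was -0.056, and CLU alone was higher in RKN. Once SKN was left out, CLU lay inside the 2-fold mark in RKN and in SKLMS1 and SERPING1 in RKN, so no member was higher in RKN and CFI alone in SKLMS1. Other medians that moved were -1.84 in RKN and -1.21 in SKLMS1 without SKN, and -1.61 in SKLMS1, -1.81 in SKN and 3.07 in SKUT1 without RKN.

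**Figure D3:**
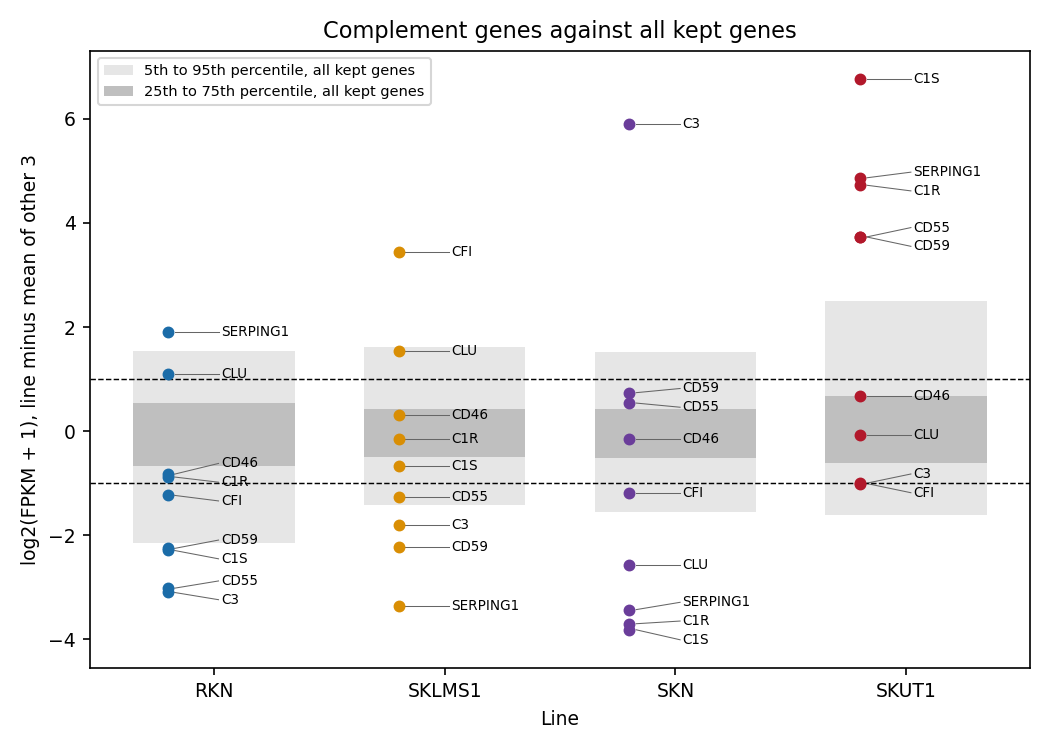
Difference of each complement gene in a line from the mean of the other 3 lines on the log2(FPKM + 1) scale, with 1 point per gene, grey bands for all 13713 kept genes and dashed lines at 2-fold. In SKUT1 5 genes lie above the upper dashed line, from 3.73 to 6.77, and in SKN C3 stands alone above it at 5.90.

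The other genes of the pathway were given by a list of 53 from initiation to receptors, all found in the table, of which 15 reached an FPKM of 1 in at least 1 line. Those at or above 1 were 8 in SKUT1, 6 in SKN, 6 in SKLMS1 and 3 in RKN. At least 2-fold from the mean of the other lines were 6 higher and 0 lower in SKUT1, 5 and 3 in SKN, 2 and 3 in SKLMS1, and 2 and 4 in RKN, out of the 15 that reached an FPKM of 1. Of all kept genes 17.9% were higher and 13.1% lower in SKUT1, 9.97% and 10.8% in SKN, 10.7% and 9.83% in SKLMS1, and 11.6% and 16.6% in RKN. The medians ran from -0.59 in RKN to -0.35 in SKUT1. The lower counts depended on the scale: with a pseudocount of 0.1 they were 6 in SKUT1, 7 in SKN, 8 in SKLMS1 and 10 in RKN, and in SKUT1 TPM gave 2 and quantile scaling 1. With a pseudocount of 5 the higher counts were 3 in SKUT1, 1 in SKN, 0 in SKLMS1 and 1 in RKN, and the lower counts 0, 1, 1 and 2. Without SKLMS1, 2 were lower in SKUT1; without RKN, 5 were lower in SKN and 5 in SKLMS1; without SKN, 1 was higher in RKN and 5 were lower in SKLMS1; and without SKUT1, 1 was lower in SKN. The 3 genes of C1q, without which C1r and C1s are not assembled into C1, were at most 0.0775 in any line. None of C6, C7, C8A, C8B and C9 of the lytic pore exceeded 0.0360, C8G was 0.176 to 0.426, and C5, from which its assembly starts, was 0.696 to 1.64.

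Genes of this list that reached an FPKM of 5 included PTX3, MASP1, CFD and C1QBP. PTX3, a long pentraxin that binds C1q, was 3047 in SKUT1, 185 in SKN, 1.76 in SKLMS1 and 0.0342 in RKN. MASP1, a protease of the lectin pathway, was 13.1 in SKUT1, 0.131 in SKLMS1 and listed at 0 in RKN and SKN. CFD, the alternative pathway protease factor D, was 7.25 in RKN and 9.39 in SKUT1 and at most 0.851 in SKLMS1 and SKN. C1QBP, a mitochondrial protein that also binds C1q, was 393 in RKN and 117 to 177 elsewhere. SKUT1 therefore held the top level of PTX3 and MASP1, and RKN that of C1QBP. For CFD, SKUT1 and RKN lay inside the 2-fold mark, and their order was not checked under other scalings.

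**Figure D4:**
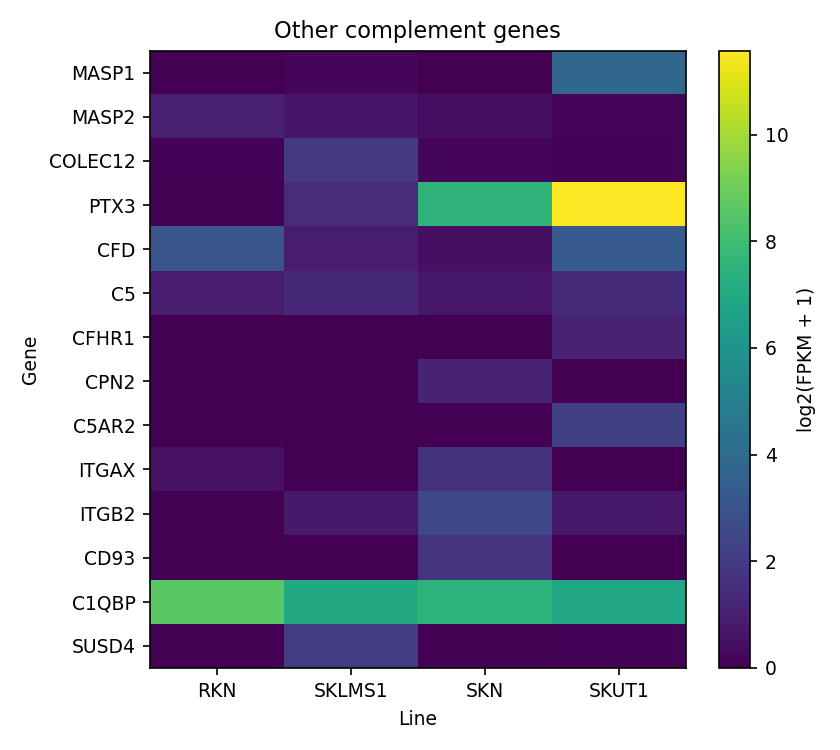
Level of 14 other complement genes that reached an FPKM of 1, as a colour scale of log2(FPKM + 1) with genes in rows and lines in columns. C1QBP is at 117 or more in all 4 lines, whereas PTX3 runs from 0.0342 in RKN to 3047 in SKUT1.

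C2, CFB, C4A and C4B, which encode the substrates of C1s and their alternative pathway counterpart, were listed at 0 in all 4 lines, and their expression cannot be read from this table. They lie in the major histocompatibility complex, and of 117 protein-coding genes in the table between HLA-F and HLA-DPB1 in RefSeq order, 97 (82.9%) were at 0 in all lines, compared with 12.7% of the 17419 protein-coding genes found in the table. TUBB, CLIC1, CSNK2B and BAG6, genes that nearly every cell uses, were among them. The counts for the pathway list thus leave these 4 genes unmeasured, and the leukocyte marker AIF1 lies in the same stretch.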

How the data were processed

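Poly(A) RNA of 4 lines was sequenced, 1 library each; per the labels' protocols, TruSeq Stranded mRNA libraries were read as single-end 75 bp reads on a NextSeq 500. The values deposited by the authors are FPKM per gene symbol. Alignment and quantification tools were STAR and Cufflinks, and the build hg19, per the submitters' processing notes, which give no version. Neither annotation, strand setting nor filters were given in the sources used here. Of 23610 rows, 28 with a date number for a symbol and 5 with spreadsheet errors were left out, and a gene was kept if any line reached an FPKM of 1. Depth was estimated from single-transcript genes of GENCODE release 29, with an assumed fragment length of 200 bases; 59.0 to 60.8% of low values lay within 0.1 of a whole read, and as the step was fitted to these values this does not check the totals.

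With 1 library per line no test, p-value or error was computed. The members, lists and motifs were chosen with earlier results of these data known. Named genes were all 9 members, genes of the pathway list with an FPKM of 5 or more, the 3 transcription genes with the widest range and the 3 nearest patterns per member with a range of 4-fold or more; some genes that this rule names are not reported here. The code was tested on simulated data. RefSeq annotation of GRCh38.p14 gave gene order only, besides the promoter windows. Computations used Python 3.11.15, numpy 2.4.6 and pandas 2.3.3.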

Additional observations from a re-analysis of the deposited data

How the results depend on the processing

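Alternatives were pseudocounts of 0.1 and 5, TPM, median-of-ratios and quantile scaling, an 8-fold rule, the median of the other lines, no filter or a minimum FPKM of 5, each line left out and, added after the data were seen, members listed at 0 left out. No paired analysis was possible because each line had 1 library. A median counted as moved when it crossed the 2-fold mark or shifted by more than 1.5-fold, and a count when it differed by more than 1.5 times. The count of members 4-fold apart stayed between 6 and 8 (8 as reported), and 5 members were higher in SKUT1 under every scaling and pseudocount. TPM moved the median of all genes from -0.04 to 0.24 in RKN and from -0.03 to -0.31 in SKUT1.

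With a pseudocount of 0.1 the members' median was -2.13 in RKN, 0.013 in SKLMS1 and -2.36 in SKN; with 5 it was 3.08 in SKUT1, -0.54 in SKN and -1.10 in SKLMS1, and 0 members were higher in RKN. Against the median of the other lines it was -0.85 in RKN, 0.34 in SKLMS1 and -0.34 in SKN, with 1 member higher in RKN, 3 higher in SKN and 0 lower in SKUT1. TPM and quantile scaling gave 2 lower in SKUT1. Without values listed at 0, 1 member was higher in RKN and the SKN median was -0.98. Leaving out lines gave 0 to 2 members higher in RKN, a median in RKN of -1.84 to -0.68, 1 to 4 members higher in SKLMS1, a median in SKLMS1 of -1.61 to 0.59, 1 to 3 members higher in SKN, a median in SKN of -1.81 to -0.056, 1 to 2 members lower in SKUT1 and a median in SKUT1 of 3.07 to 3.93. At an FPKM of 5, genes of the pathway list numbered 1 in SKLMS1, 2 in SKN and 5 in SKUT1. The cause of these shifts was not tested. CFI and SERPING1 in their low lines rest on at most about 5 reads.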

Other observations

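A list of 18 receptors, kinases and transcription factors of the interferon, interleukin 6, interleukin 1 and NF-kB pathways all reached an FPKM of 1 in every line. Against the other lines' mean, 2 were at least 2-fold higher and 0 lower in SKUT1 (17.9% and 13.1% of all kept genes), 1 and 2 in SKN (9.97% and 10.8%), 2 and 1 in SKLMS1 (10.7% and 9.83%), and 1 and 4 in RKN (11.6% and 16.6%). The higher count in SKUT1 was 5 without SKLMS1, 4 without SKN and 1 without RKN. In SKLMS1 without RKN, 1 was higher and 3 were lower, and in SKN without SKUT1, 2 were higher and 1 was lower. The lower count in RKN was 6 without SKN. Those with the widest range included CEBPB and IL6ST. CEBPB, a factor of the acute phase response, was 45.0 in SKUT1, 144 in SKN, 48.8 in SKLMS1 and 9.34 in RKN. IL6ST, the shared receptor chain of the interleukin 6 family, was 67.9 in SKUT1, 46.8 in SKN, 26.8 in SKLMS1 and 10.1 in RKN. No relation to the complement genes was tested.

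C1RL, the gene next to C1R and C1S in RefSeq order, encodes a related protease and was looked at after their values were seen. It was 8.62 in SKUT1, 6.66 in SKN, 8.83 in SKLMS1 and 3.72 in RKN. SKUT1 and SKLMS1 were level for it, whereas SKUT1 was 13.4-fold above SKLMS1 for C1R and 57.0-fold for C1S.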
